A study of Mus musculus with 2 samples.

Results

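Natural killer (NK) cells and type 1 innate lymphoid cells (ILC1) were followed in single-cell RNA-seq of mouse ear skin with and without allergic contact dermatitis (ACD). A cell was a member if it held at least 2 unique molecular identifiers (UMIs, each standing for 1 captured RNA molecule) of Ncr1 and Klrb1c together, at least 1 UMI of Tyrobp, and none of Cd3e, Csf1r or Mcpt8. Among cells that passed the quality filter, 328 of 11665 in the ACD library and 7 of 12213 in the control library were members, 335 of 23878 in all. They were compared with 684 CD8 T cells of the ACD library, which held at least 2 UMIs of Cd3d, Cd3e and Cd3g together and at least 2 of Cd8a and Cd8b1 together. A further 2 ACD cells passed both gates and were counted as members.

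Both libraries came from ears of ICR mice of 7 to 8 weeks, given as male in the methods of the study. ACD mice were sensitized on the dorsal skin with 1.0% DNFB, a protein-reactive hapten, received 0.2% DNFB on the ears on day 6, and were sampled 60 hr later. Control ears were healthy skin, and the sources used here give neither a vehicle treatment nor the number of animals in a library. The skin was digested with collagenase D and DNase1 and dead cells were removed. Each condition was 1 library and cells are not replicates, so there is no p-value, and ranges in parentheses are exact 95% intervals that cover counting error only.

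NK cells and ILC1 are lymphocytes without a rearranged antigen receptor. They weigh activating receptors, such as NKp46 (Ncr1), NK1.1 (Klrb1c) and NKG2D (Klrk1), against inhibitory receptors such as many of the Ly49 family (Klra genes) and NKG2A (Klrc1), and respond with granzymes, perforin, IFNγ and chemokines. The transcription factor Eomes marks conventional NK cells, whereas ILC1 reside in tissues and are usually recognized by Itga1 and Cd200r1 and by the lack of Eomes.

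Promoter sequences are given first for 4 genes that the results turn on, namely the receptor of the gate, the Ly49 receptor highest in the ranks, and 2 secreted products. They were picked from 13 genes searched because they hold a match. Each line below holds the 250 bases upstream of a RefSeq start site on GRCm38.p6, read 5′ to 3′ on the strand of the gene. Capitals mark a RUNX motif (TGTGGTT) or a T-box motif (GGTGTGA) on either strand, since RUNX3 and the T-box factors EOMES and T-bet are known regulators of NK cells. Ncr1 lies on the + strand at chr7:4337465-4337714, Klra1 on the − strand at chr6:130386875-130387124, Gzmc on the − strand at chr14:56234658-56234907 and Xcl1 on the − strand at chr1:164935523-164935772.
Ncr1: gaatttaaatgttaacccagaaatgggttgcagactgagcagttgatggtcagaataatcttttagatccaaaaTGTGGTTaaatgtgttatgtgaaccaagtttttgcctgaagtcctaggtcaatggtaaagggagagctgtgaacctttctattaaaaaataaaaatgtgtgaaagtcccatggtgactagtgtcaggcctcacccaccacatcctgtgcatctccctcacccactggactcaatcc
Klra1: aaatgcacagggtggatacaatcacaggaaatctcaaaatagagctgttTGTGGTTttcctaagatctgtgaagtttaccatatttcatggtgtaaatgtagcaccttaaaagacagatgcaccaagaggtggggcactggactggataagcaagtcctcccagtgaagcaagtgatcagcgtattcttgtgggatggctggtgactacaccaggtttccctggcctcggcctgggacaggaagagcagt
Gzmc: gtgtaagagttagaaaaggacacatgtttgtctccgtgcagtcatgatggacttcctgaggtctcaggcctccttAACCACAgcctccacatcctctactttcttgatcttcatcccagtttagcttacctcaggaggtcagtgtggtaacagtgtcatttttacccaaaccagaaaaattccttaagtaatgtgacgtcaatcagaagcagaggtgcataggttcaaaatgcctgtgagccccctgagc
Xcl1: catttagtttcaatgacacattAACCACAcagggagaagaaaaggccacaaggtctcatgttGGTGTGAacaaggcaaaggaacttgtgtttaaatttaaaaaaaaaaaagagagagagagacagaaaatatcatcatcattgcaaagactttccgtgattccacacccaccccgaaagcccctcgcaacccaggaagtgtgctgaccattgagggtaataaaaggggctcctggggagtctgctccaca
All 4 windows held 1 RUNX match, and the Xcl1 window also held a T-box match. Of the other 9 genes searched, Gzma had a RUNX match, whereas Eomes, Fcer1g, Ifng, Irf8, Klra4, Klra7, Klra8 and Prf1 had neither. Among the 15 genes highest in the ranks, 12 had a promoter in the table and 3 of these a RUNX match and none a T-box match. RUNX matches stood in 5.08% of 27025 promoters in the table, in 3.93% of those of genes tested here, and in 6.06% of 198 promoters of genes at least 2-fold higher in members than in CD8 T cells. The shares for the T-box motif were 3.84%, 3.28% and 5.56%. The table held promoters for 80.2% of the genes higher in members. It held 79.3% of those lower, under the 80% set as a minimum, so that count is void. Whether the shares of higher and lower genes differ was therefore not tested, and no excess particular to the higher genes is claimed. A match is a description of the letters and shows no binding. In the GENCODE M21 annotation of the same build, the Ncr1 gene spans chr7:4337724-4345164, Klra1 chr6:130363917-130386874, Gzmc chr14:56231441-56234656 and Xcl1 chr1:164931644-164935527.

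Members were nearly all in ACD skin. They made up 2.81% of ACD cells (2.52 to 3.13) and 0.0573% of control cells (0.0230 to 0.118), a ratio of 49.1, or 5.62 on the log2 scale (4.56 to 6.94). CD8 T cells went from 11 in control to 684 in ACD, a log2 ratio of 6.02, which lies within the interval of the members. These are shares of 2 libraries, in which more members and fewer other cells cannot be told apart.

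The gate was set on measured values, so its genes are given as a description. In ACD, 372 cells had at least 2 UMIs of Ncr1 and Klrb1c together, of which 12 lacked Tyrobp, 28 had Cd3e, 4 had Csf1r and 4 had Mcpt8. Both receptor transcripts were found in 156 members, Ncr1 alone in 150 and Klrb1c alone in 22. Exactly 2 UMIs of the pair were held by 116 members, and 151 further cells met every other condition with a single UMI.

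Cells on both sides of this limit carried similar levels of the leading NK transcripts. A level here is the UMIs of a gene per 1000000 UMIs of the cells summed. Without mixed barcodes (defined in the next paragraph), Eomes was at 323 in 110 cells just inside and 311 in 138 cells just outside, Irf8 at 905 and 881, and Gzma at 3991 and 4110. Klra1 was at 890 inside and 645 outside. The T cell receptor gene Cd3d was at 22.7 inside and 62.5 outside, and Itgae, the integrin CD103, at 28.0 and 77.7. The cells with a single UMI thus held the NK transcripts and more of some T cell transcripts.

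Transcripts of other skin cells were found in both populations, those of fibroblasts and red cells at similar levels. Over 1% of UMIs fell in 53 markers of other cell types in 20 members (6.10%) and 62 CD8 T cells (9.06%), which are called mixed barcodes here. The 6 fibroblast markers summed to a level of 3118 in members and 3083 in CD8 T cells, and the 6 red cell markers to 1229 and 1221. Mononuclear phagocyte markers were at 260 and 154, with C1qa and the gate gene Csf1r at 0 in members. Neutrophil markers were at 5.41 and 68.0, with Retnlg, Csf3r, Cxcr2 and Ly6g at 0 in members. B and plasma cell markers were at 7.37 and 3.84, basophil and mast cell markers at 38.3 and 23.5, and ILC2 markers at 132 and 116, with Il1rl1, Il17rb and Arg1 at 0 in members. The mast cell protease gene Cma1 was found in 15.2% of members and 1.61% of CD8 T cells, with Mcpt8 (a gate gene), Cd200r3 and Ms4a2 at 0 in members. Without mixed barcodes, 94.7% of the 247 genes called higher than in CD8 T cells below (2.8% of those tested) and 96.6% of the 208 called lower (2.36%) kept their calls. Genes of fibroblasts, red cells and cartilage are not described as products of members. A doublet caller marked 25 members and 40 CD8 T cells, none of which was removed. The median member held 5008 UMIs (792 to 21807) and the median CD8 T cell 7964. Of the 50 barcodes found in both libraries, 3 belonged to members and 4 to CD8 T cells.

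Markers that the gate did not use were high in members, as the NK label requires. Eomes was at 290 in members (268 to 315) and 10.9 in CD8 T cells, a log2 ratio of 4.73 (4.38 to 5.11). Klra1 was at 778 (740 to 817) and 23.5, a log2 ratio of 5.05 (4.81 to 5.30). Members were 2.81% of the cells and held 49.5% of all Eomes UMIs and 49.7% of all Klra1 UMIs of the ACD library.

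The usual ILC1 markers Itga1 and Cd200r1 were scarce in members. Itga1, the integrin CD49a, had 24 UMIs over all members, a level of 11.8 (7.56 to 17.6) against 16.8 in CD8 T cells. Cd200r1 had 4 UMIs, as did Zfp683, the gene of the residence factor HOBIT. At least 1 UMI of Itga1 was found in 15 members (4.57%). After each cell was thinned to 2000 UMIs, Itga1 was found in 1 of 319 (0.313%), against 2.94% of CD8 T cells. A chondrocyte gate, which serves as the background for free RNA in other genes below, had it in 4.81% of cells. Members lay below that gate, so it gives no free RNA level for Itga1. Tnfsf10, encoding TRAIL, was at 13.3 against 25.1. The list of ILC1 and residence genes, given below, went both ways. Of 16 tested, 3 were called higher than in CD8 T cells (Xcl1, Car2 and Kit) and 4 lower. No Eomes UMI was found in 112 members, a count that depth limits, and these are described below. No member is called an ILC1 below, and the name of the gate is kept for the cells it selected.

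Against CD8 T cells, 247 of 8824 genes tested (2.8%) were at least 2-fold higher in members and 208 (2.36%) at least 2-fold lower. The median log2 ratio of all genes tested was 0.017. A gene was tested with at least 50 UMIs in both populations together, and calls were made on log2 ratios after adding 10 per 1000000 to each level. Other levels and log2 ratios printed here carry no such addition. The lists below were counted by these calls and set beside the 2.8% and 2.36%, which are the background.

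**Figure D1:**
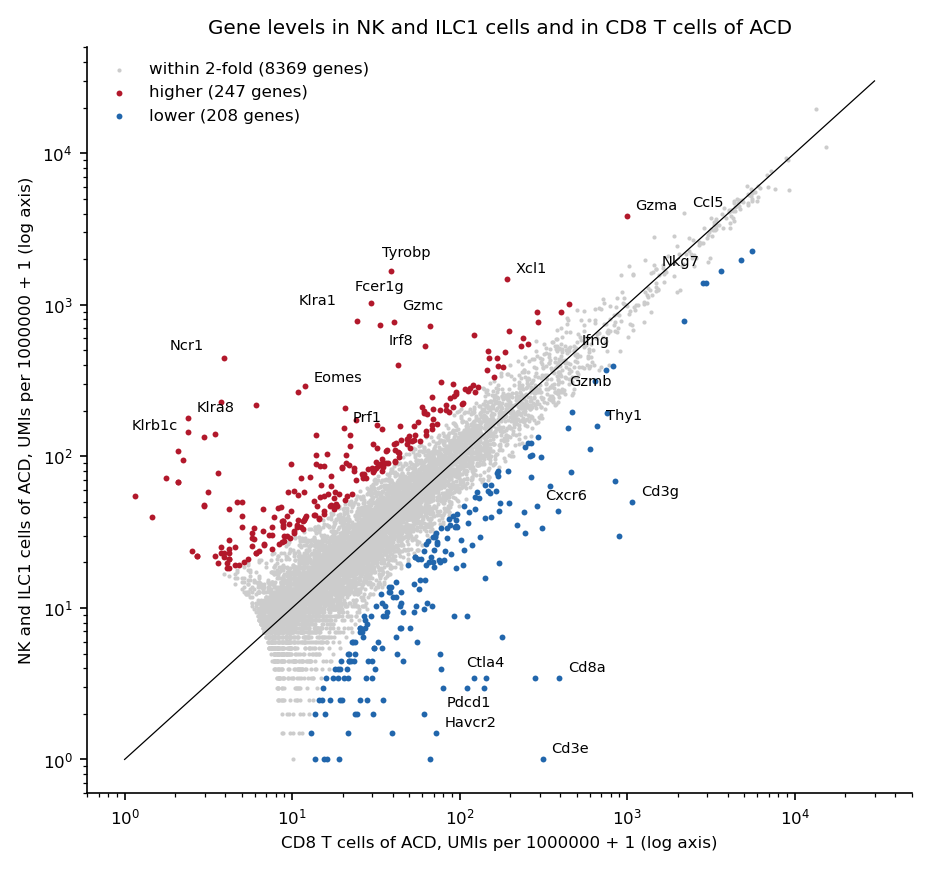
Each point is 1 of 8824 genes, with its level in CD8 T cells of ACD on the x axis and in NK and ILC1 cells of ACD on the y axis (UMIs per 1000000 + 1, log axes, black line at equal levels). Red points are the 247 genes called higher and blue points the 208 called lower, with Ncr1, Tyrobp, Fcer1g and Klra1 at the upper left and Cd3e and Cd8a at the lower right.

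The 15 highest ratios were those of Ncr1, Tyrobp, Fcer1g, Klra1, Klra7, Irf8, Klra8, Gzmc, Klrb1b, Eomes, Atp1b1, Klra4, Klrb1c, Klri2 and Car2. Of these, 7 were lectin receptors, and Atp1b1, encoding a subunit of the sodium pump, was at 265 against 9.84. The 15 lowest were Cd8a, Cd3e, Cd8b1, Cd3d, Cd3g, Cd5, Cd6, Gm8369, Ifitm1, Ctla4, Pdcd1, Havcr2, Themis, Lat and Icos. Ifitm1, an interferon-induced membrane protein, was at 67.3 against 840.

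Lectin receptors of the NK gene complex were mostly higher in members. Of 23 genes listed, 18 were tested. Of the 17 without the gate gene Klrb1c, 12 were higher and 1 was lower, with a median log2 ratio of 2.79. In the stretch of chromosome 6 that holds these genes, with starts from 128609227 to 130363917 (GRCm38), 23 of 48 annotated genes were tested, 15 were higher, Klrb1c included, and 1 was lower. Outside the list, BC035044 and Clec2i were the 2 called higher there.

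The Ly49 genes, most of them receptors for MHC class I, stood far above the CD8 T cells. Klra7 was at 229 in members (208 to 250) against 2.77, a log2 ratio of 6.37 (5.69 to 7.14). Klra8, encoding the activating receptor Ly49H, was at 178 against 1.38, a log2 ratio of 7.01 (6.07 to 8.15). Klra4, encoding the activating receptor Ly49D, was at 144 against 1.38. Klra9 and Klra10 were at 93.9 and 71.3, against 1.23 and 0.769. Klra3 had 40 UMIs in members and none in CD8 T cells. Counts were made against an mm10 reference and the mice were ICR, so each Ly49 name here is that of the reference gene. Which Ly49 genes these mice carry was not tested.

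Each Ly49 transcript was found in a part of the members only. At 2000 UMIs per cell, 59.2% of members had Klra1 (53.6 to 64.7), 23.8% Klra7, 23.2% Klra8 and 20.4% Klra4, against 3.24%, 0.735%, 0.441% and 0.588% of CD8 T cells. Klra4 and Klra8 were found together in 26 cells, Klra4 without Klra8 in 39 and Klra8 without Klra4 in 48. Of the cells with Klra1, 27.5% also had Klra7, and of those without it 18.5% did. The number of animals in a library is not known, so differences between animals and between cells of 1 animal cannot be told apart here. The Ly49 genes are near copies, and reads can be split between them. In the last 500 bases of their transcripts, 17.3% of 60-base windows of Klra7, 38.7% of Klra9 and 32.4% of Klra10 were shared with a relative, but 3.63% of Klra1 and 6.35% of Klra8.

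Of the remaining receptors of the complex, some were far higher in members than in CD8 T cells and others were found at closer levels in both. Other lymphocytes were not compared. The inhibitory receptor gene Klrb1b was at 218 against 5.07, Klri2 at 139 against 2.46 and Klre1 at 172 against 23.2, all called higher. Klrb1b shares 20.4% of the 60-base windows of its 3′ end with relatives, the gate gene Klrb1c among them, so it is not fully apart from the gate. Klrk1, encoding the activating receptor NKG2D, was at 457 against 291, a log2 ratio of 0.65 (0.54 to 0.77), and Klrd1, the CD94 chain that pairs with NKG2A and NKG2C, at 452 against 340. Neither was called. The NKG2 chain genes went the other way, Klrc1 at 76.7 against 165, called lower, and Klrc2 at 83.6 against 171, not called. Their 3′ ends share 37.5% and 17.4% of 60-base windows with relatives, and the Klrc1 call lay at the limit (log2 −1.02 with the addition).

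Signal adapters of innate receptors were high in members and those of the T cell receptor low. Of 15 tested genes of this list that no gate used, 5 were higher and 2 lower, with a median of 0.13. Fcer1g, the adapter of NKp46 and CD16, was at 1019 against 28.8, a log2 ratio of 5.15 (4.93 to 5.37). The kinase gene Syk was at 46.2 against 2.00, the adapter gene Lat2 at 87.5 against 12.9, the CD16 gene Fcgr3 at 38.8 against 0.461, and the SLAM family receptor gene Cd244 at 58.5 against 9.23. In contrast, Zap70 was at 37.8 against 86.0 and Lat at 42.8 against 387, both called lower. Hcst, the DAP10 adapter of NKG2D, was at 357 (331 to 384) and 362, a log2 ratio of −0.02 (−0.14 to 0.10).

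Genes of the T cell receptor complex and T lineage were low. Of 16 tested, 13 were lower and none was higher, 5 of them genes of the gates. Of the 11 that no gate used, 8 were lower. Themis, a regulator of thymic selection, had no UMI in members, which allows a level of up to 1.81, and was at 66.0 in CD8 T cells. Cd5 was at 1.97 against 139, Cd6 at 5.41 against 179 and Bcl11b, a T lineage factor, at 7.86 against 91.0. Some T lineage genes remained in members, Thy1 at 157 against 663, Cd28 at 102 against 270, and Cd2 at 259 against 424, the last not called. Cd3g, which the gate of members did not use, had 100 UMIs in 18.3% of them.

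Of the cytotoxic genes, perforin and granzyme A were higher in members and granzyme B was not. Of 15 tested, 6 were higher and 1 was lower, with a median of 0.23. Gzma was at 3856 (3771 to 3942) against 1002, a log2 ratio of 1.94 (1.90 to 1.99). Prf1, the pore-forming perforin, was at 153 (136 to 171) against 19.4, a log2 ratio of 2.98 (2.68 to 3.29). Gzmb was at 264 (242 to 287) against 402, a log2 ratio of −0.61 (−0.74 to −0.47), which passed 2-fold (−1.19) when all deposited barcodes were used. The granzyme gene Gzmk was called lower, at 18.2 against 62.3.

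Protease inhibitors and a death ligand were higher in members. Serpinb9, an inhibitor of granzyme B, was at 403 against 42.0, a log2 ratio of 3.26 (3.06 to 3.46), and Serpinb6b at 722 against 65.3, a log2 ratio of 3.47 (3.31 to 3.63). Fasl, encoding the ligand of FAS, was at 84.5 (72.4 to 98.2) against 34.0 and was called higher. Granule genes that T cells and NK cells share differed little, Nkg7 at 1635 against 1426 and Srgn, the granule proteoglycan, with a log2 ratio of 0.23.

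With the gates used here, members were a larger source of Prf1 and Xcl1 than CD8 T cells, and a smaller source of Ifng and Gzmb. In the ACD library members held 37.8% of Prf1 UMIs (34.5 to 41.3), and CD8 T cells 15.3%. For Xcl1 the parts were 37.8% and 15.6%. For Gzma the parts were 36.3% and 30.1%, for Fasl 21.3% and 27.3%, for Ifng 13.9% (13.1 to 14.7) and 42.9%, and for Gzmb 6.27% and 30.5%. Ccl3 and Tnf came mostly from other cells, with 1.66% and 3.64% in members. These parts depend on the width of the gate, and cells with a single UMI of the Ncr1 and Klrb1c pair count outside the members. Under alternative gates and filters, 23 such parts of members left the interval of the main setting and 37 stayed within it.

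**Figure D2:**
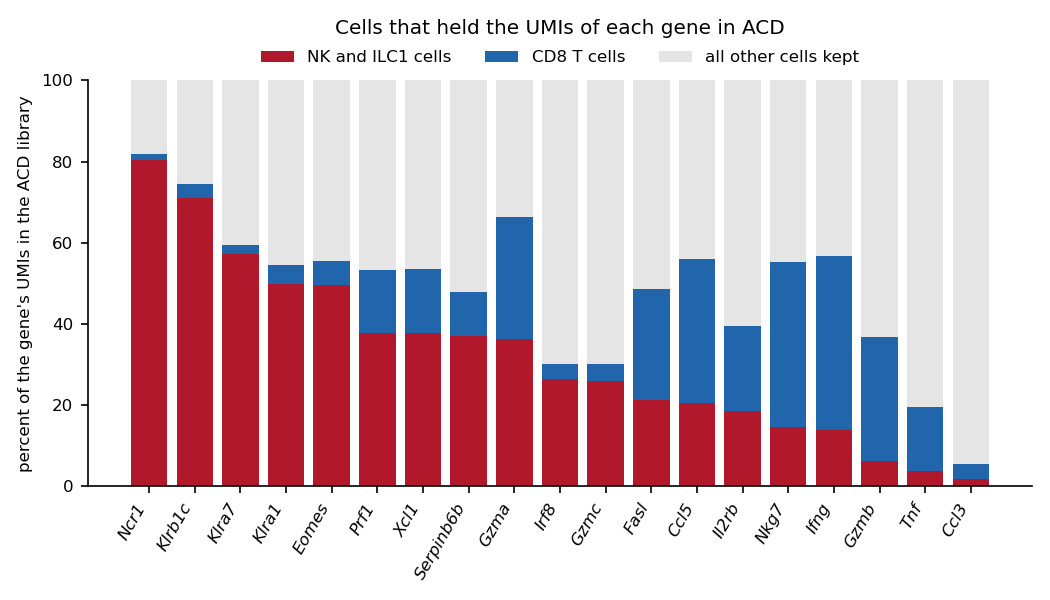
Stacked bars show, for each gene on the x axis, the percent of its UMIs in the ACD library held by NK and ILC1 cells (red), CD8 T cells (blue) and all other cells kept (grey). Red takes the larger part for the receptor genes at the left, with 80.2% for the gate gene Ncr1 and 49.7% for Klra1, and falls to 6.27% for Gzmb and 1.66% for Ccl3.

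Among the cytokines and chemokines, Xcl1 alone was called higher. Of 17 tested, 1 was higher and 5 were lower, with a median of −0.12. Xcl1, encoding the chemokine that draws XCR1+ dendritic cells, was at 1474 (1422 to 1528) against 191, a log2 ratio of 2.95 (2.86 to 3.05), and was found in 67.1% of members (61.6 to 72.2) and 15.3% of CD8 T cells at 2000 UMIs. Ccl5 was at 4014 against 2187, a log2 ratio of 0.88 (0.84 to 0.92). The lower genes were Il13, Il17a, Csf1, Lta and Ccl1, with 3 to 18 UMIs in members.

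Ifng did not separate the populations. Its level was 496 in members (466 to 527) and 479 in CD8 T cells, a log2 ratio of 0.05 (−0.05 to 0.15). At 2000 UMIs, 50.2% of members (44.5 to 55.8) and 45.6% of CD8 T cells (41.8 to 49.4) had a UMI, against 0.147% in the chondrocyte gate. Tnf was at 50.6 against 68.7 and Ltb, encoding lymphotoxin beta, at 435 against 392. The chemokine genes Ccl3 and Ccl4 were at 330 against 231 and 507 against 445.

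**Figure D3:**
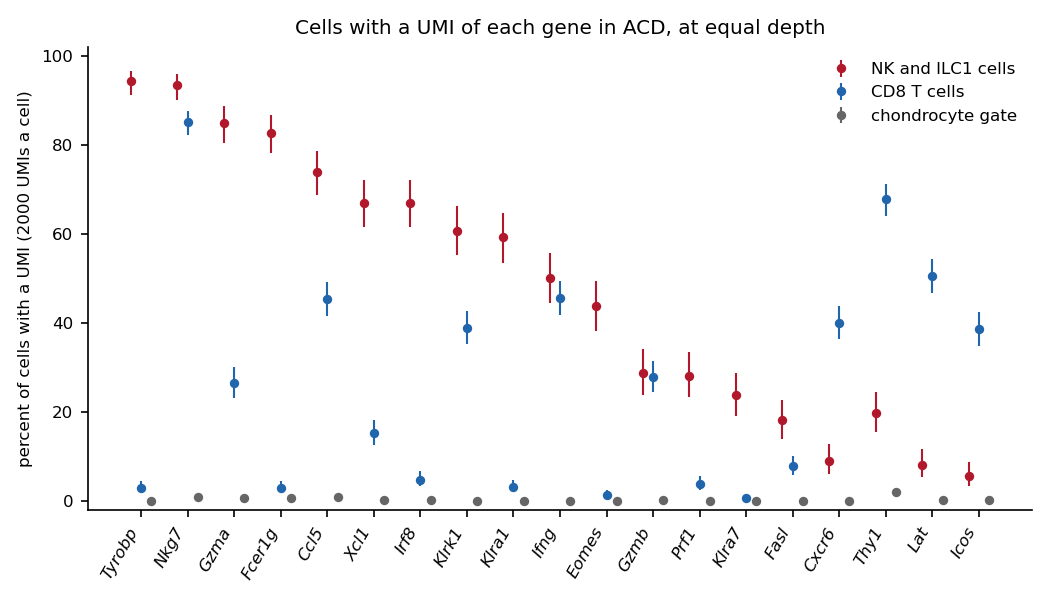
Points give the percent of cells of ACD with at least 1 UMI of each gene after each cell was thinned to 2000 UMIs, in NK and ILC1 cells (red, 319 cells), CD8 T cells (blue, 680 cells) and a chondrocyte gate that stands for background (grey, cells of cartilage). Bars are exact 95% intervals, which overlap for Ifng and Gzmb and lie apart for Gzma (85.0% and 26.6%), Xcl1 and Eomes.

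Among the cytokine receptors, both genes for IL-18 and single chains of those for IL-2 and IL-15, IFNγ and IL-10 were higher. Il2ra (the IL-2 alpha chain), Il7r and Il21r were lower. The partner chains Il2rg (261 against 216), Ifngr2, Il10rb and Il15ra were not called higher. Of 17 tested 5 were higher and 3 lower, with a median of 0.45. Il2rb, the beta chain that IL-2 and IL-15 share, was at 263 (241 to 286) against 94.1, and both IL-18 receptor genes were higher, Il18rap at 249 against 91.5 and Il18r1 at 268 against 111. Ifngr1 was at 666 against 197, a log2 ratio of 1.76 (1.65 to 1.87), and Il10ra at 38.3 against 10.9. The lower genes were Il2ra, at 14.3 against 57.2, Il7r, at 19.7 against 74.4, and Il21r, at 9.83 against 62.6. Il12rb2, of the IL-12 receptor, was at 51.6 against 24.8 and was not called.

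Receptors of migration differed in both directions. Of 16 tested, 5 were higher and 2 lower, with a median of −0.03. Cxcr4 was at 101 (87.4 to 116) against 12.9. The integrin gene Itga4 was at 119 against 29.5 and Ccr2 at 125 against 57.4, the last at the limit. Cxcr6, a receptor of tissue-resident lymphocytes, was at 45.7 (36.9 to 56.0) against 288, a log2 ratio of −2.66 (−2.97 to −2.36). Cx3cr1 had 7 UMIs. Cxcr3, the receptor of CXCL9 and CXCL10, was at 26.0 against 35.5, a log2 ratio of −0.45 (−0.91 to −0.01).

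Of 23 transcription factors tested, 5 were higher and none was lower, with a median of 0.45. Irf8 was at 740 (703 to 779) against 32.4, a log2 ratio of 4.51 (4.30 to 4.73), and was found in 67.1% of members and 4.85% of CD8 T cells at 2000 UMIs. Eomes, Nfil3 (197 against 85.8), Runx3 (385 against 181) and Nr4a3 (149 against 67.0) were the others. Tbx21, the gene of T-bet, was at 103 (89.7 to 118) against 48.9, a log2 ratio of 1.08 that fell below the limit after the addition (0.94).

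Checkpoint genes were low in members. Of 14 tested, 7 were lower and 1 was higher, with a median of −1.06. Pdcd1, encoding PD-1, had 4 UMIs in members (level 1.97) and was at 110 in CD8 T cells. Ctla4 had 5 UMIs (2.46 against 121), Havcr2 1 UMI (0.491 against 71.7), and Lag3 was at 7.86 against 109. The costimulatory Icos was at 32.4 against 308 and Tnfrsf4 at 1.97 against 78.9. Cd7, an immunoglobulin family receptor, was the gene called higher, at 244 against 67.0.

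**Figure D4:**
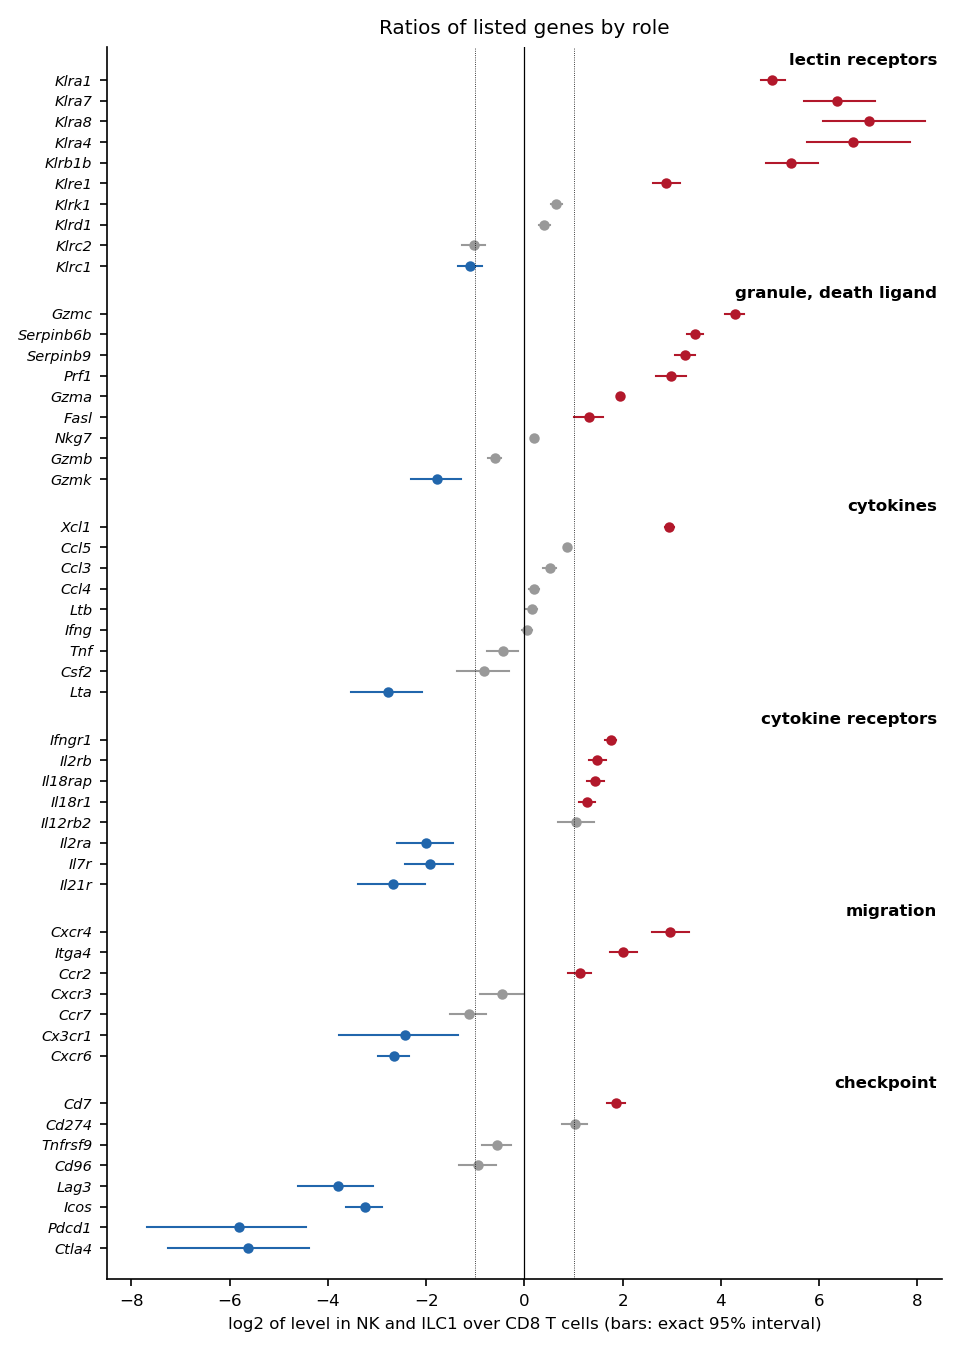
Points give the log2 ratio of the level in NK and ILC1 cells over CD8 T cells of ACD for listed genes grouped by role, with exact 95% intervals as bars and dotted lines at 2-fold. Red and blue genes were called higher and lower after the addition of 10 per 1000000, and the lectin receptors reach 7.01 (Klra8) while Pdcd1 and Ctla4 lie at −5.81 and −5.62.

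Lists on maturation and residence gave a mixed picture. Among 13 tested genes of conventional NK maturation, 3 were higher, Eomes and Itga2 among them, and 2 lower (Cx3cr1 and Ly6c2). Itga2, encoding CD49b, was at 24.1 against 2.77. Itgam, encoding CD11b, was at 19.7 against 1.23 with too few UMIs to be tested. Among 16 tested genes of ILC1 and tissue residence, 3 were higher (Xcl1, Car2 and Kit) and 4 lower (Cxcr6, Il7r, Itgae and Inpp4b). Car2, encoding a carbonic anhydrase, was at 108 against 1.08, a log2 ratio of 6.65 (5.58 to 7.98). Cd69 was at 449 against 611 and Rgs1 at 852 against 893.

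Few genes of the interferon response list were called, and the cell cycle genes that were called were all lower. Of 23 interferon response genes tested none was higher and 2 were lower, Ly6a (392 against 828) and Psmb9 (79.6 against 195). Outside this list, the interferon-induced Ifitm1, given above, and Ifi27l2a (30.0 against 244), which was picked after its values were seen, were also lower. Of 22 cell cycle genes 11 were lower, with a median of −1.03. At least 1 UMI of Mki67 or Top2a was found in 91 members (27.7%). After such cells were left out of both populations, none of 14 cell cycle genes still tested was called. Mki67 and Top2a belong to this list, so the loss of its calls follows in part from how the cells were chosen. Of all genes called, 172 of the 247 higher and 117 of the 208 lower kept their calls. Immediate-early genes, which skin dissociation can induce, had 1 of 15 higher (Dusp2, 890 against 401) and a median of 0.54.

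Members differed among themselves. As a measure of spread, the Fano factor (variance over mean of counts at 2000 UMIs) was taken for genes with a mean of at least 0.1. The 15 highest were led by the red cell genes Hbb-bs (215) and Hba-a1 (179) and included Hbb-bt, Ccl21a, Col1a1, Col1a2, Col3a1, Dcn, Gsn, Sparc, Cd74 and Ccl7. The genes of the cytotoxic and cytokine lists among them were Gzmc (108) and Ccl5 (28.0). Gzma was at 9.79, Ccl4 at 6.75 and Xcl1 at 5.86, where counting alone would give about 1.

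Gzma was found in most members and Gzmb in fewer. Gzma was at 0 in 36 of 328 members, with a median of 18.5 UMIs and a highest count of 221. Gzmb was at 0 in 181, with a highest count of 19. At 2000 UMIs, 88 of the 92 cells with Gzmb also had Gzma. Xcl1 was at 0 in 69 members, with a median of 4 and a highest count of 164. Both Xcl1 and Ifng were found in 113 of 319 cells, Xcl1 alone in 101, Ifng alone in 47 and neither in 58. Ccl5 was at 0 in 51 members, and the tenth of members with the most held 41.5% of its UMIs.

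Members with Eomes carried more Ly49 transcripts, and those without it more Rora, Cxcr6 and Cd160. At least 1 Eomes UMI was found in 216 members (65.9%, 60.4 to 71.0), with a median depth of 5257.5 UMIs against 4274 in the 112 without, so that a lack of Eomes and a lack of depth cannot be told apart in a single cell. Without mixed barcodes, 204 cells with and 104 cells without were compared. Klra7 was at 307 against 77.9, a log2 ratio of 1.98, Klra4 at 183 against 75.9 and Gzmb at 332 against 210. The gene of the retinoid-related orphan receptor, Rora, was at 143 against 363, a log2 ratio of −1.34 (−1.65 to −1.04). Cxcr6 was at 31.0 against 95.9, Cd160 at 26.2 against 85.9 and Tnf at 32.6 against 110.

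The difference in Gzma, Klra1 and Rora was also seen in shares of cells when these genes were thinned, though cells were grouped by Eomes at full depth. At 2000 UMIs, Gzma was found in 93.0% of members with Eomes (88.6 to 96.0) and 66.0% without, Klra1 in 66.7% and 44.3%, and Rora in 18.8% (13.8 to 24.7) and 35.8% (26.8 to 45.7). Xcl1 was found in 70.4% and 70.8%, and Ifng in 51.2% and 46.2%, with overlapping intervals. Tbx21 did not follow Eomes, at 103 with and 136 without, a log2 ratio of −0.39 (−0.83 to 0.05).

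Members with Ifng held more Ccl3, Ccl4 and Tnf, and Ccl5 at a similar level. Ifng was found in 243 members (74.1%), at a median depth of 4998 UMIs against 5018 in the others. Without mixed barcodes (226 and 82 cells), Ccl3 was at 435 against 96.6, a log2 ratio of 2.17 (1.73 to 2.64), Ccl4 at 671 against 253, Tnf at 67.3 against 19.3, and Tnfrsf9, encoding the activation receptor 4-1BB, at 75.8 against 23.6. The heat shock gene Hspa1b was also higher, at 425 against 140. Ccl5 was at 4433 and 4419, Eomes at 313 and 311, a log2 ratio of 0.01 (−0.27 to 0.29), and Gzma at 4386 and 4045. The early response gene Egr1 was lower, at 176 against 397, and the factor Klf2, which keeps lymphocytes in circulation, was at 369 against 558.

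Itgam and Cd27, which order maturation of mouse NK cells, were sparse. Itgam without Cd27 was found in 22 members, Cd27 without Itgam in 111, both in 17 and neither in 178. Without mixed barcodes, Ccl5 was at 8984 in 22 cells with Itgam only and 2910 in 102 with Cd27 only, a log2 ratio of 1.63 (1.52 to 1.74). Ccl4 was at 1131 against 414, Gzma at 6322 against 3827 and Prf1 at 303 against 163. Xcl1 was lower, at 881 against 1556, a log2 ratio of −0.82 (−1.13 to −0.52), and so was Emb, encoding the adhesion molecule embigin, at 142 against 362. Counts of Ccl5, Ccl4, Gzma and Xcl1 spread between members beyond counting error. With 22 cells on 1 side, the intervals given here are too narrow as ranges over cells.

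Gzmc, a granzyme whose level was 766 in members against 39.5 in CD8 T cells, came from a few cells. In ACD, 19 members had any Gzmc UMI and 6 had 10 or more (1.83%, 0.674 to 3.94), a limit chosen after the values were seen. These 6 held 97.8% of the 1558 Gzmc UMIs of members, with 536, 441, 423, 91, 16 and 16. At 2000 UMIs Gzmc was found in 4.08% of members (2.19 to 6.87) and 3.68% of CD8 T cells (2.39 to 5.38), so the log2 ratio of 4.28 is one of counts in single cells and not of the share of cells. Across the ACD library 32 cells had 10 or more, 6 of them CD8 T cells.

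The 6 Gzmc-high members lacked Eomes and Klra1, which most members had, and 1 had Gzma, with 28 UMIs. None had Klra4 or Klra8, which most members also lacked. All 6 had Xcl1 and Thy1, 5 had Cd160, 5 had Cd69 (not the same 5 cells), and 4 had Itgae. Of the 6, 1 was a mixed barcode, with 98 UMIs of the fibroblast gene Dcn. Among the 5 others and 303 remaining members without mixed barcodes, Cd160 was at 426 against 35.4, a log2 ratio of 3.59 (2.67 to 4.42), and Cd69 at 2018 against 440. Ly6c2 was at 19.9 in members with Eomes and 142 in those without, and the 5 Gzmc-high cells held 41 of the 71 UMIs of the latter. They also held 15 of the 43 Cd160 UMIs of members without Eomes and 7 of the 48 Cxcr6 UMIs.

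**Figure D5:**
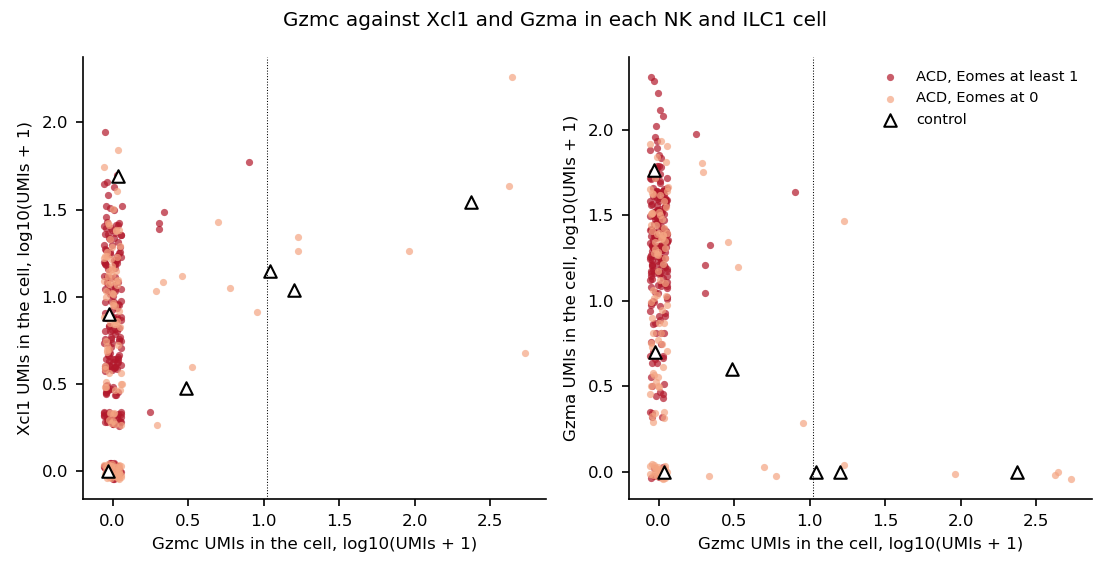
Each point is 1 member, with its Gzmc UMIs on the x axis and its Xcl1 (left) or Gzma (right) UMIs on the y axis, as log10(UMIs + 1), with small shifts of the ACD points on the y axis and of cells with few Gzmc UMIs on the x axis. Right of the dotted line (10 or more Gzmc UMIs) lie 6 ACD cells, all without Eomes (pale), and 3 control cells (triangles), which hold Xcl1 and, but for 1 ACD cell, no Gzma.

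The 7 control members were too few for a comparison of levels. Gzmc reached 10 or more UMIs in 3 of 7 (42.9%, 9.90 to 81.6), with 235, 15 and 10, and these 3 had Xcl1, Itgae, Cd160 and Cd69 and no Gzma, Eomes or Klra1. The first 2 of them were mixed barcodes, with 102 and 120 Dcn UMIs. Eomes was found in 1 of 7 control members and Klra1 in another. That second cell also held 57 Gzma and 151 Ccl5 UMIs, where the other 6 held 7 Gzma UMIs in all. With 7 cells of 1 library, no level in control is given as a property of healthy skin.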

How the data were processed

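Single-cell RNA-seq libraries of ear skin, 1 per condition, were analysed. The authors made the deposited count matrices with Cell Ranger (3.1.0 in the processing notes) against an mm10 reference. The values are raw UMI counts of 27998 genes in 12895 control and 13163 ACD barcodes. Genes of the T cell receptor constant regions are not among them. Cells kept had between 201 and 4999 genes, no more than 25000 UMIs and less than 8% of UMIs from mitochondrial genes. In the methods of the study the limit of 25000 UMIs has the sign of a minimum, but was applied here as a maximum. More cells were kept here in each library than the study reports after its filter, so the sets of cells differ.

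The gates, gene lists and rules were chosen with earlier results of these data known. Counts were summed over the cells of a gate, since cells are not replicates, and given per 1000000 UMIs with exact Poisson intervals. Ratios have exact conditional intervals and shares have exact Clopper-Pearson intervals (95%). No count model was fitted and no p-value computed, since each condition is 1 library. Genes with at least 50 UMIs in both gates together were tested, and a gene was called at 2-fold after adding 10 per 1000000. For shares of cells, counts were thinned to 2000 UMIs, leaving out 9 members and 4 CD8 T cells. Each thinned result drew its own sample of UMIs, so counts can differ slightly between results. Sub-groups of members were compared without mixed barcodes, a choice made after seeing the data. Named genes were the 15 highest and 15 lowest ratios, the 15 highest Fano factors, the 10 highest levels and the listed genes. Intervals cover counting error only. Levels are 3′ UMIs and are not divided by gene length.

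On counts simulated for this comparison (8805 genes), 96.1% of the intervals held the simulated log2 ratio. Of 200 changes put in, 187 were called with the true sign. The intervals do not cover spread between cells beyond counting error, as for Gzmc, Ccl5, Gzma and Xcl1. They are too narrow there as ranges over cells, and by how much was not tested. Chromosome positions were matched by identifier to GENCODE M21 (27645 of 27998 found). Promoters were matched to RefSeq (GRCm38.p6) by identifier, or by symbol or synonym where no identifier matched. Doublets were marked with Scrublet in scanpy 1.11.5 and kept. Python 3.11.15, numpy 2.4.6, scipy 1.17.1, pandas 2.3.3 and matplotlib 3.10.9 were used. Alternatives covered the gate, the quality filter, the added constant, the UMI minimum, scaling, thinning, mixed barcodes and cycling cells. Some genes that the rules name are not reported here.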

Additional observations from a re-analysis of the deposited data

How the results depend on the processing

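The share of ACD cells that were members was 1.04% with a gate that asked for both Ncr1 and Klrb1c and for no UMI of Cd3d, Cd3e and Cd3g, against 2.81%. With 1 per 1000000 added in place of 10, 513 genes were called higher and 561 lower, against 247 and 208. Under the other alternatives run, the counts lay between 210 and 347 higher and between 158 and 288 lower. Signs were followed for a chosen set of named genes only, and none of these past 2-fold in the main setting changed sign. The 347 arose when mixed barcodes were left out, and 234 of the 247 genes were among them. The strict gate shared 182 of the 247 higher and 168 of the 208 lower calls. Without cycling cells 6839 genes were tested, and Il13 (log2 −0.49) was among those no longer called, and with all deposited barcodes Gzmb (−1.19) and Ccl5 (1.26) passed it and Ly6a (−0.71) did not. Klrc1, Ccr2, Tbx21, Fasl, Psmb9 and Stmn1 lay near the limit. The causes were not tested. No paired analysis was possible because each condition is 1 library, and for the same reason no replicate could be left out. Counts of 3 or fewer UMIs, as for Havcr2 in members, limit a ratio to its interval.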

Other observations

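The highest levels in ACD members after Malat1 (19498) and Tmsb4x (10959) were those of Eef1a1, Tpt1, H2-D1, Actb, Fau, Ccl5, Tmsb10 and Gzma, so 2 genes of the effector lists stood among the 10 highest. Among members without mixed barcodes, 85 with a UMI of Mki67 or Top2a and 223 without one held Eomes at a log2 ratio of −0.05 (−0.31 to 0.20) and Xcl1 at 0.05. Klf2 was lower in the cycling cells, at 221 against 532, as was Ccl5, at 2755 against 5382.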
